A study of Mus musculus with 8 samples.

Results

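The matrix metalloproteinases (MMPs), the ADAMTS proteases and the tissue inhibitors of metalloproteinases (TIMPs) were taken from the tables by symbol: Mmp with a number and an optional a or b, Adamts with a number, and Timp1 to Timp4. In all 8 tables this gave the same 46 of 23389 symbols, which are 23 MMP, 19 ADAMTS and 4 TIMP genes. The 8 poly-A RNA-seq libraries form 4 groups of 2. The first group is induced pluripotent stem (iPS) clones made from mouse embryonic fibroblasts with Oct4, Klf4 and Sox2 (3F) and treated with IL6 at 10 ng/mL, and the next is iPS clones made with 4 factors (4F), with no IL6 in their labels. The references are fibroblasts of mouse embryos (MEF) and the embryonic stem (ES) cell line D3-GFP, each as biological duplicates. Each iPS library is a separately derived clone, so the pair stands for 2 clones of its kind, and an effect of the factor set cannot be told apart from that of IL6. The ES cells have the 129S2/SvPas background and the clones and MEF are BALB/c, and comparisons with ES cells therefore cross strains, which cannot be told apart from cell type. Age and passage: not given in the sources used here.

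MMPs are zinc proteases that cut collagens, proteoglycans and other proteins of the extracellular matrix; most are secreted as inactive proenzymes, and a few are held on the cell surface. ADAMTS proteases are secreted relatives with thrombospondin repeats, some of which cut the large proteoglycans while others trim procollagen or act on microfibril proteins. TIMPs bind the active site of MMPs, and Timp3 also that of several ADAMTS and ADAM proteases. Fibroblasts are a main source of these proteins in connective tissue.

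Values are taken as RPKM, a unit that divides reads by gene length and by library depth, so levels can be set beside each other between genes. A gene was tested if it was at 1 RPKM or more in at least 2 libraries. That left 13200 of all genes and 28 of the 46, namely 14 MMP, 11 ADAMTS and 3 TIMP genes. Adamts5, Adamts6, Adamts12 and Mmp16 passed through MEF alone and Adamts8 through ES cells alone, so a difference was built into their entry. The words "called", "higher", "lower", "rose" and "fell" stand for the outcome of limma's test on log2(RPKM + 1), fitted to all 8 libraries and adjusted by Benjamini-Hochberg over the 13200 genes, with a threshold of 0.05. A log2 difference on this scale understates the change of a gene with low values. The p-values rest on the spread between 2 libraries a group, pooled over all 4 groups. They do not measure the spread of the compared groups alone.

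Library depth, estimated from the step between low values, was 11650000 to 17800000 reads. The summed RPKM of 8 pluripotency markers was 4981 to 5107 in ES cells, 4973 to 6110 in the clones and 6.81 to 8.51 in MEF, in keeping with the labels. Single markers differed: against ES cells limma called 3 of the 8 lower and 1 higher in each kind of clone (30.3% and 33.1% of all genes in 3F+IL6, 33.5% and 33.7% in 4F). The means of Nanog, Zfp42 and Esrrb were 249, 460 and 141 RPKM in ES cells, 141, 215 and 63.4 in 3F+IL6, and 175, 193 and 77.5 in 4F. The difference was positive for 5 of the 8. The summed level of 12 fibroblast markers was 6.64 to 6.80 in ES cells, 184 to 345 in the clones and 3170 to 3188 in MEF, and all 12 were detected in every clone. Among them Thy1 was at 11.3 to 16.5 RPKM in the clones and 524 to 535 in MEF. The 3F+IL6 clones were the least alike pair, with a median absolute log2 difference of 0.18 over all tested genes, against 0.10 for 4F, 0.06 for ES and 0.05 for MEF. The summed endothelial markers were at 13.8 to 26.4 RPKM in the clones, 22.9 to 23.7 in ES cells and 1.85 to 1.87 in MEF. Pecam1 made up most of that sum in the clones (12.1 to 24.6). In the same order the trophoblast sum was 7.62 to 17.7, 12.7 to 12.9 and 4.63 to 4.92. Most of it in the clones was Tfap2c (6.92 to 16.1). The endoderm sum was 4.51 to 7.54, 6.94 to 7.14 and 20.8 to 20.9. In these bulk samples fewer cells of a type and less RNA per cell cannot be told apart.

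The 3 families were unevenly filled. Summed over all members, MMP genes came to 44.2 and 44.5 RPKM in ES cells, 136 and 209 in the 3F+IL6 clones, 115 and 102 in the 4F clones and 341 and 339.7 in MEF. The TIMP sum was 50.6 and 56.6 in ES cells, 139 and 169 in the 3F+IL6 clones, 121 and 118 in the 4F clones, and 1017 and 1004 in MEF. The ADAMTS sum was the smallest in every library, at 10.6 in both ES libraries, 13.0 and 17.1 in the 3F+IL6 clones, 12.9 and 13.0 in the 4F clones, and 67.4 and 67.1 in MEF. The ratio of the MMP to the TIMP sum was therefore 0.335 and 0.338 in MEF, against 0.787 to 1.24 in the 6 pluripotent libraries. The genes that make up the MMP sum also differed. Mmp14 held 65.4% and 64.9% of it in MEF, Mmp14 with 34.6% and 32.7% and Mmp11 with 32.5% and 32.1% led in ES cells, and Mmp3 led in the 3F+IL6 clones with 33.2% and 36.5%. In the 4F clones Mmp2 held 25.7% and 22.3% and Mmp3 21.6% and 21.9%.

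**Figure D1:**
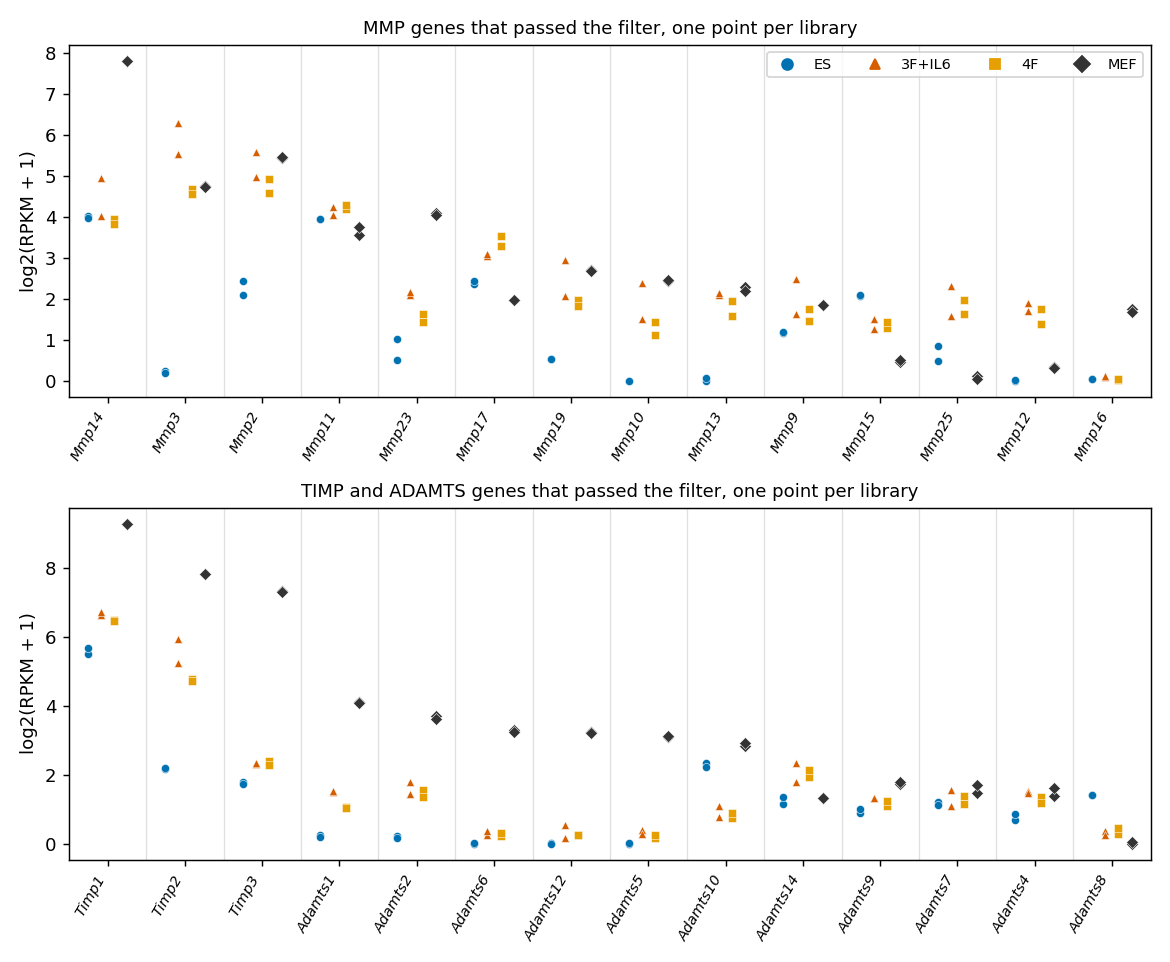
Level of each of the 28 tested genes, as log2(RPKM + 1) on the vertical axis, with 1 point per library and the 4 groups side by side (circles ES, triangles 3F+IL6, squares 4F, diamonds MEF). Genes are ordered by their highest group mean within MMP, TIMP and ADAMTS. The MEF points stand far above all others for the TIMPs, Mmp14 and Adamts1, 2, 5, 6 and 12, while Mmp3, Mmp17, Mmp25 and Mmp12 have their highest points in iPS clones.

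Among the inhibitors, Timp1 had the highest level of any member in every library. Timp1 (chromosome X, 20870166 to 20874735), which inhibits most soluble MMPs, was at 44.7 and 50.5 RPKM in the ES pair, 97.8 and 105 in the 3F+IL6 pair, 89.8 and 88.3 in the 4F pair and 628 and 621 in the MEF pair. The 4 groups did not overlap, with ES cells lowest and MEF highest. Relative to MEF, Timp1 differed by −2.61 on the log2 scale in 3F+IL6 (SE 0.07; limma adjusted p = 1e-07) and by −2.80 in 4F (adjusted p = 7e-08), and it was above ES cells by 1.08 and 0.89 (limma adjusted p = 2.4e-05 and 5.1e-05). The gene lies within Syn1 on the opposite strand. Syn1 was at 1.55 to 5.69 RPKM, and the kit is one that does not mark strand.

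Timp2 (chromosome 11, 118301069 to 118355740), which besides inhibiting MMPs takes part with Mmp14 in the activation of proMmp2, was at 3.47 and 3.62 RPKM in the ES pair, 36.8 and 60.2 in the 3F+IL6 pair, 26.8 and 25.5 in the 4F pair and 229 and 226 in the MEF pair. Its order was the same as that of Timp1, but the gap between ES cells and clones was wider, at 3.40 (SE 0.19; limma adjusted p = 1.7e-05) for 3F+IL6 and 2.58 (SE 0.19; limma adjusted p = 5.1e-05) for 4F. Both kinds of clone were below MEF, with differences of −2.25 and −3.08 (limma adjusted p = 2.5e-05 and 4.6e-06). Timp3 (chromosome 10, 86300372 to 86349506), the matrix-bound inhibitor, was at 2.43 and 2.3 RPKM in the ES pair, 3.99 and 4.05 in the 3F+IL6 pair, 4.26 and 3.91 in the 4F pair and 160.0 and 157 in the MEF pair. Here the clones lay close to ES cells, at 0.58 and 0.60 above them (limma adjusted p = 0.00048 and 0.00038), and far below MEF, at −4.99 and −4.97 (adjusted p = 1.4e-08 for each). Against ES cells the log2 difference of 3F+IL6 was thus 3.40 for Timp2 and 0.58 for Timp3, although MEF held the 2 genes at 226 to 229 and 157 to 160 RPKM. Timp4 did not pass the filter and was at most 0.143 RPKM.

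Mmp14 (chromosome 14, 54431612 to 54445364), the membrane-type protease that activates proMmp2, had the highest level of any protease here. It was at 15.3 and 14.5 RPKM in the ES pair, 15.3 and 29.6 in the 3F+IL6 pair, 14.3 and 13.2 in the 4F pair and 223 and 220.5 in the MEF pair. All libraries but MEF lay at 13.2 to 29.6 RPKM, and only 3F+IL6 clone 2 stood above the ES values by a margin. The difference from MEF was −3.32 in 3F+IL6, −3.91 in 4F and −3.81 in ES cells (SE 0.25 each; limma adjusted p = 1.3e-05, 5.1e-06 and 5.9e-06). Neither kind of clone was called against ES cells (adjusted p = 0.13 and 0.72). The related Mmp16 was at 2.38 and 2.18 RPKM in MEF and at most 0.0904 elsewhere, and fell in all 3 comparisons with MEF (−1.61 to −1.68). It passed the filter through MEF alone, so a fall against MEF was built into its entry.

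Of the other membrane-bound members, Mmp17 and Mmp25 were highest in the clones, Mmp15 in ES cells and Mmp23 in MEF. Mmp17 (chromosome 5, 129584169 to 129611099), which is held by a lipid anchor, was at 4.15 and 4.36 RPKM in the ES pair, 7.19 and 7.55 in the 3F+IL6 pair, 10.6 and 8.73 in the 4F pair and 2.94 and 2.89 in the MEF pair. Its groups did not overlap, with 4F highest and MEF lowest. It was above MEF by 1.10 in 3F+IL6, 1.44 in 4F and 0.43 in ES cells (limma adjusted p = 4e-05, 8.7e-06 and 0.0063), and above ES cells by 0.67 and 1.02 in the clones (adjusted p = 0.0012 and 0.00017). Mmp25, also lipid-anchored and best known from leukocytes, ran from 2.01 to 3.97 RPKM in the clones, against 0.392 and 0.804 in ES cells and, in MEF, 0.0827 and 0.0348. Both kinds of clone were higher than ES cells (1.29 and 1.13) and than MEF (1.87 and 1.71). Mmp15, a transmembrane member, was highest in ES cells at 3.17 and 3.27 RPKM, at 1.41 to 1.82 in the clones and at 0.361 and 0.429 in MEF. It was lower in the clones than in ES cells, with differences of −0.69 and −0.72, and higher than in MEF by 0.90 and 0.87, or 0.37 and 0.40 with quantile normalization. Mmp23 (chromosome 4, 155650655 to 155653384), a membrane member with an unusual cysteine-rich domain, was at 1.03 and 0.422 RPKM in the ES pair, 3.25 and 3.5 in the 3F+IL6 pair, 2.08 and 1.68 in the 4F pair and 16.1 and 15.5 in the MEF pair. It was below MEF in 3F+IL6 (−1.94) and in 4F (−2.55), and both were above ES cells, by 1.36 and 0.76 (0.50 for 4F without ES 2).

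The gelatinase Mmp2 (chromosome 8, 92827291 to 92853420), which cuts denatured collagen and collagen IV and is activated through Mmp14 and Timp2, was at 3.26 and 4.4 RPKM in the ES pair, 30.4 and 47.1 in the 3F+IL6 pair, 29.4 and 22.8 in the 4F pair and 42.1 and 43.1 in the MEF pair. The clones lay at 22.8 to 47.1 RPKM, with 3F+IL6 clone 2 above MEF and the other 3 below. Relative to ES cells Mmp2 rose by 3.02 (SE 0.22; limma adjusted p = 4.4e-05) in 3F+IL6 and 2.49 (SE 0.22; limma adjusted p = 9.8e-05) in 4F. Against MEF, 3F+IL6 was not called (−0.16, adjusted p = 0.5), and 4F was lower (−0.70, adjusted p = 0.02), a call lost without 4F clone 2 (−0.52), MEF 1 (−0.71) or MEF 2 (−0.68). Mmp2 and Mmp14 were thus unlike in the clones: 91% and 61.3% of the MEF mean for Mmp2 in 3F+IL6 and 4F, against 10.1% and 6.21% for Mmp14. The other gelatinase, Mmp9, ran from 1.24 to 4.55 RPKM over all libraries. It was higher in 3F+IL6 than in ES cells (0.87; limma adjusted p = 0.021), a difference not called with quantile normalization (0.65), when only the 4 libraries of the comparison were fitted, and without ES 1 (0.85) or ES 2 (0.88), while the difference was 0.44 without 3F+IL6 clone 2. It was lower in ES cells than in MEF (−0.66; adjusted p = 0.044), a call lost with no filter, quantile normalization or the replicate block, without ES 1 (−0.65) or ES 2 (−0.68), and on leaving out either 4F clone or either MEF library (−0.66 in all 4 cases).

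On chromosome 9, 10 MMP genes stand side by side within 427 kilobases (7272514 to 7699585, mm10, GENCODE), in the order Mmp13, Mmp12, Mmp1b, Mmp3, Mmp1a, Mmp10, Mmp8, Mmp27, Mmp20 and Mmp7. They hold the stromelysins Mmp3 and Mmp10, the collagenases Mmp13, Mmp8, Mmp1a and Mmp1b, the macrophage elastase Mmp12, and Mmp7, Mmp20 and Mmp27. AP-1 sites near the start are textbook features of stromelysin and collagenase promoters, so the 250 bases before and 50 after each RefSeq start were searched for TGAGTCA on both strands. Of these 10 genes 7 had a match at a start, against 0 of the 22 other members with a promoter in the table. Counted by promoter, 7 of the 12 promoters of the 10 genes had a match, beside 5.20% of all 32851 promoters. The first base of the match lay 35 to 93 bases before the start. All 7 also held TATAAA, read on both strands, and no match of the 2 motifs overlapped. By promoter, 9 of the 12 held TATAAA, beside 13.6% of all promoters. Its first base lay 28, 29 and 26 bases before the start in Mmp1a, Mmp10 and Mmp7, and Mmp7 had a further match at 123. In Mmp1b, Mmp13 and Mmp3 it lay 49, 16 and 7 bases before the start, and in Mmp12 after the start. None of the 10 held the GC box GGGCGG on either strand, against 18 of the 22 other members and 35.7% of all promoters. The stretches from 140 bases before the start to 10 after it are shown to compare genes of the cluster that were expressed with genes that were not; TGAGTCA and TATAAA on either strand are in capitals (RefSeq, GRCm38.p6, 5′ to 3′ on the strand of the gene).
Mmp13, chr9:7272374-7272523, plus strand: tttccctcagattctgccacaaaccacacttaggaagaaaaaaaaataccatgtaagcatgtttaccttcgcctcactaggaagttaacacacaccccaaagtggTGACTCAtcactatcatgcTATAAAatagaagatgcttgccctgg
Mmp12 start 1, chr9:7344257-7344406, plus strand: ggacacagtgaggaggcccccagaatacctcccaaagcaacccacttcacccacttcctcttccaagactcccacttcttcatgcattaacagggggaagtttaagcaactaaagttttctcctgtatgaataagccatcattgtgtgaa
Mmp12 start 2, chr9:7347234-7347383, plus strand: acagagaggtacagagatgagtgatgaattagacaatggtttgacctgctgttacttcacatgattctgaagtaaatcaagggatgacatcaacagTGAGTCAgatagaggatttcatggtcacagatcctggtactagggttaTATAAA
Mmp3, chr9:7445682-7445831, plus strand: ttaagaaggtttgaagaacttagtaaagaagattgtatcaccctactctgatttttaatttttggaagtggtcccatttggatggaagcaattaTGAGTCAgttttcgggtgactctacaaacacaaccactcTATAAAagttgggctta
Mmp10, chr9:7502202-7502351, plus strand: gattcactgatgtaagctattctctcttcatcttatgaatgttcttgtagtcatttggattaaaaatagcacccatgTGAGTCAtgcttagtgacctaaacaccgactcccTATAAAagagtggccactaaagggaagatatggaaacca
Mmp1a, chr9:7464001-7464150, plus strand: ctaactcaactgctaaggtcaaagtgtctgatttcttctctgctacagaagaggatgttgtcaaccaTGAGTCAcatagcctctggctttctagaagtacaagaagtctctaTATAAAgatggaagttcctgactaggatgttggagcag
Mmp1b, chr9:7388017-7388166, minus strand: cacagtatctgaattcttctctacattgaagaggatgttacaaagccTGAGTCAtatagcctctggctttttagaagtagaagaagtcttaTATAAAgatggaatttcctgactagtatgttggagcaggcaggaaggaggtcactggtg
Mmp7, chr9:7691950-7692099, plus strand: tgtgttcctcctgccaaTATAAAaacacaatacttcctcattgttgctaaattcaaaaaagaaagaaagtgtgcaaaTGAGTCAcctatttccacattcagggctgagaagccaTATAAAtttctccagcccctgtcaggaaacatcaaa
Mmp8, chr9:7558289-7558438, plus strand: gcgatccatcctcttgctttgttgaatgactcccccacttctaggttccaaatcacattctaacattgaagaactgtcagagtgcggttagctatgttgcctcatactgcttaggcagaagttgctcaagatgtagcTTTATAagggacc
Mmp7 carries both motifs in this window and was listed at 0 in all 8 libraries, and Mmp8 has only the TATAAA match. Mmp12 has 2 annotated starts, of which the downstream one has the matches. A match is a description of the letters and not a bound site.

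For contrast, the same stretches of the protease and the inhibitor gene with the highest values, Mmp14 and Timp1, hold GGGCGG instead, which is in capitals in these lines.
Mmp14, chr14:54431458-54431607, plus strand: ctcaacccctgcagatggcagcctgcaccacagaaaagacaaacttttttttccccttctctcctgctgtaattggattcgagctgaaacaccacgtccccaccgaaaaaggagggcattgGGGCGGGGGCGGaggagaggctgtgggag
Timp1, chrX:20870026-20870175, plus strand: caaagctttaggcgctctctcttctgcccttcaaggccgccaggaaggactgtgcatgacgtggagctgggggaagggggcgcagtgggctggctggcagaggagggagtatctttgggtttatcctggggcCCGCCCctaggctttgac
The window of Mmp14 has a pair of adjoining GC boxes, and that of Timp1 has 1 on the opposite strand.

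Of the cluster, Mmp3 was the gene that set clones apart most. Mmp3 (chromosome 9, 7445822 to 7455975), which cuts proteoglycans, fibronectin and several proMMPs, was at 0.176 and 0.148 RPKM in the ES pair, 45.1 and 76.4 in the 3F+IL6 pair, 24.7 and 22.3 in the 4F pair and 25.7 and 25.4 in the MEF pair. ES cells had almost none, 4F clones were close to MEF, and both 3F+IL6 clones lay above every other library. Relative to ES cells, Mmp3 rose by 5.68 (SE 0.21; limma adjusted p = 4.3e-06) in 3F+IL6 and 4.40 (SE 0.21; limma adjusted p = 1e-05) in 4F, the largest difference of any member in either comparison. Against MEF, 3F+IL6 was higher by 1.17 (SE 0.21; limma adjusted p = 0.0015) and 4F was not called (−0.12, adjusted p = 0.63). The fibroblast markers Dcn and Lum stood in a similar relation to MEF: the 3F+IL6 and 4F means were at 162% and 81.1% of the MEF mean for Dcn, 204% and 83.7% for Lum and 238% and 92.1% for Mmp3. The other 10 markers were at 2.63% (Thy1) to 39.3% (Pdgfra) in 3F+IL6 and 2.2% to 25.8% in 4F. Their part in the levels of the MMP genes was not tested.

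Mmp13, Mmp10 and Mmp12 followed at lower levels. Mmp13, a collagenase, was at 1.97 to 3.38 RPKM in the clones and 3.91 and 3.58 in MEF, and at most 0.0494 in ES cells. It was above ES cells by 2.08 in 3F+IL6 and 1.72 in 4F. Against MEF only 4F was lower (−0.49; limma adjusted p = 0.0092), a call lost without MEF 1 (−0.44) and at −0.31 without 4F clone 2. Mmp10 was listed at 0 in both ES libraries, and had 1.84 and 4.21 RPKM in the 3F+IL6 pair, 1.68 and 1.17 in the 4F pair, and 4.38 and 4.48 in MEF. It rose relative to ES cells by 1.94 and 1.27, and 4F was below MEF (−1.17, adjusted p = 0.0041). Mmp12 differed from these in being low in fibroblasts. It was at 1.59 to 2.72 RPKM in the clones, against 0.261 and 0.24 in MEF and 0 and 0.0182 in ES cells, and was called higher in both kinds of clone against MEF (1.47 and 1.23, or 0.96 and 0.76 with quantile normalization) and against ES cells (1.78 and 1.54). Its span overlaps that of Mmp1b on the other strand, which was at 0 to 0.539 RPKM. Mmp8, a collagenase of neutrophils, did not pass the filter, but was at 0.225 to 0.411 RPKM in the 4 clones and listed at 0 in ES cells and MEF. The other 5 genes of the cluster were at most 0.574 RPKM (Mmp1a).

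Some macrophage and blood markers, but not Ptprc or Csf1r, had higher values in the clones than in ES cells and MEF. Among the members, Mmp8, Mmp12 and Mmp25 did so too. The same held in every clone for Mmp1a, Mmp11, Mmp17, Adamts3, Adamts14, Adamts15 and Adamts19, several of them below 1 RPKM. The lysozyme gene Lyz2 had 18.1 and 28.7 RPKM in the 3F+IL6 pair, 19.1 and 16.2 in the 4F pair, 0 in both ES libraries and 3.29 and 3.04 in MEF. Emr1, which encodes the macrophage antigen F4/80, was at 0.976 and 1 in 3F+IL6, 0.567 and 0.46 in 4F, 0 in ES cells and at most 0.0835 in MEF. The summed level of the 6 markers in the tables was 51.0 to 54.8 RPKM in the clones, 13.1 to 14.9 in ES cells and 6.83 to 7.03 in MEF; Cd68, a lysosomal protein gene of macrophages, was at 20.8 to 34.4 in the clones, 13.1 to 14.8 in ES cells and 2.73 to 2.84 in MEF. Of the 6, 3 passed the filter, and limma called those 3 higher in both kinds of clone against ES cells and against MEF. Of all genes 33.1% and 33.7% were higher in 3F+IL6 and 4F than in ES cells, and 49.4% and 49.2% than in MEF. The pan-leukocyte gene Ptprc was at or near 0 everywhere (at most 0.0561), and the receptor gene Csf1r was at 0.142 to 0.16 in the clones, below its 0.585 and 0.823 in MEF. The part of such cells in the MMP values was not tested.

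**Figure D2:**
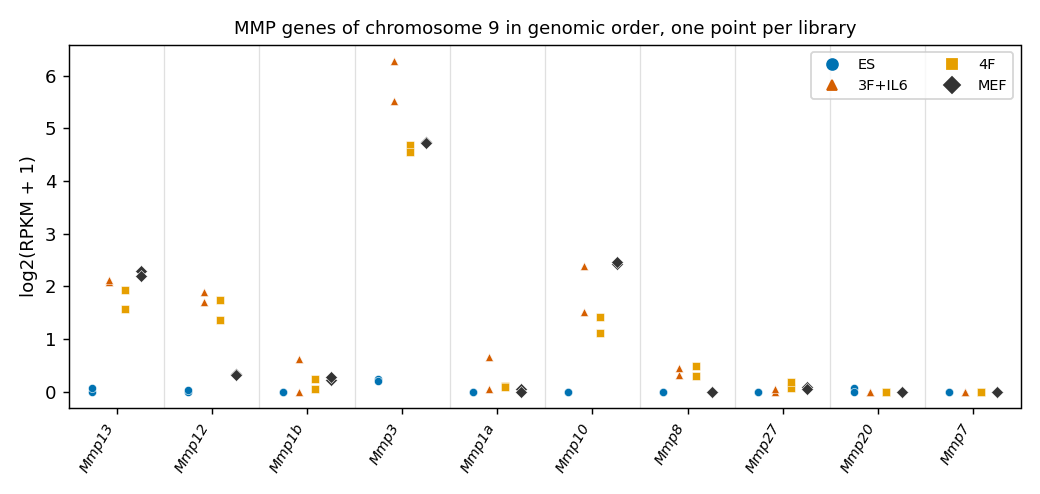
Level of the 10 MMP genes of the chromosome 9 cluster in their genomic order, as log2(RPKM + 1) with 1 point per library (circles ES, triangles 3F+IL6, squares 4F, diamonds MEF). Mmp3, Mmp10 and Mmp13 are up in clones and MEF, Mmp12 in clones only to above 1 RPKM, and Mmp7 is at 0 in every library.

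Among the remaining secreted MMPs, Mmp11 (chromosome 10, 75923222 to 75936496), or stromelysin-3, which is activated inside the cell by furin, was at 14.4 and 14.3 RPKM in the ES pair, 18 and 15.4 in the 3F+IL6 pair, 17.2 and 18.5 in the 4F pair and 10.8 and 12.4 in the MEF pair. The highest value was in 4F and the lowest in MEF. Both kinds of clone were higher than MEF, by 0.49 (SE 0.10; limma adjusted p = 0.0026) in 3F+IL6 and 0.58 (SE 0.10; limma adjusted p = 0.001) in 4F. The call in 4F against ES cells (0.30) was lost without ES 1 (0.30), ES 2 (0.29), 4F clone 1 (0.35) or 4F clone 2 (0.24), and that in ES cells against MEF (0.29) without ES 1 (0.28), ES 2 (0.29) or MEF 1 (0.19), and with quantile normalization (0.15). Its span overlaps Chchd10 on the opposite strand, which was at 363 to 440 RPKM in the pluripotent libraries and 3.51 and 3.65 in MEF. As the kit does not mark strand, reads of the overlap cannot be told apart by strand. How they were counted is not given in the sources used here, and the part of Chchd10 reads in the Mmp11 values was not tested. Mmp19 (chromosome 10, 128790910 to 128800824), a widely expressed basement membrane protease, was at 0.455 and 0.454 RPKM in the ES pair, 3.2 and 6.73 in the 3F+IL6 pair, 2.89 and 2.55 in the 4F pair and 5.47 and 5.42 in the MEF pair. The clones were above ES cells by 1.97 and 1.35 (limma adjusted p = 0.00053 and 0.0026), with 3F+IL6 clone 2 above MEF and the other clones below. The call of 4F below MEF (−0.79) was lost without 4F clone 1 (−0.86), 4F clone 2 (−0.73), MEF 1 (−0.79) or MEF 2 (−0.80).

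Of the ADAMTS genes, 5 were high in MEF and low in all pluripotent libraries. Adamts1 (chromosome 16, 85793827 to 85803113), which cuts versican and aggrecan, was at 0.179 and 0.134 RPKM in the ES pair, 1.84 and 1.89 in the 3F+IL6 pair, 1.11 and 1.04 in the 4F pair and 16.5 and 16.1 in the MEF pair. The groups did not overlap, and both kinds of clone were above ES cells (1.31 and 0.84, the latter 0.47 with quantile normalization) and below MEF (−2.59 and −3.06; limma adjusted p = 2.2e-07 and 1.1e-07). Its neighbour on chromosome 16, the aggrecanase Adamts5, was at 0 and 0.00806 RPKM in the ES pair, 0.306 and 0.212 in the 3F+IL6 pair, 0.112 and 0.182 in the 4F pair and 7.64 and 7.64 in the MEF pair. Unlike Adamts1 it was nearly silent in the clones, which held 3.39% and 1.93% of the MEF mean for Adamts5 against 11.5% and 6.59% for Adamts1. Adamts12, which cuts cartilage oligomeric matrix protein, was at 0.00998 and 0 RPKM in the ES pair, 0.129 and 0.441 in the 3F+IL6 pair, 0.2 and 0.2 in the 4F pair and 8.49 and 8.37 in the MEF pair. Adamts6, a protease tied to microfibrils, was at 0 and 0.0136 RPKM in the ES pair, 0.198 and 0.3 in the 3F+IL6 pair, 0.172 and 0.243 in the 4F pair and 8.9 and 8.5 in the MEF pair. All 3 fell in each comparison with MEF, with log2 differences of −2.78 to −3.27, and in ES cells they were at or near 0. Adamts5, Adamts6 and Adamts12 passed the filter through MEF alone, so a fall against MEF was built into their entry. Against ES cells the 3F+IL6 calls of Adamts5 (0.33), Adamts6 (0.31) and Adamts12 (0.34) were each lost with quantile normalization and without ES 1 (0.32, 0.30 and 0.35) or ES 2 (0.33, 0.32 and 0.34). That of Adamts12 was also lost without 3F+IL6 clone 2 (0.17) or on leaving out either 4F clone or either MEF library (0.34 in all 4 cases), and with no filter, the replicate block or a fit to the 4 compared libraries alone (adjusted p = 0.055, 0.052 and 0.11). In 4F the Adamts6 call (0.26) was lost with quantile normalization (0.10) and on leaving out any 1 of the ES, 4F and MEF libraries (0.22 to 0.30).

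The procollagen N-propeptidases split. Adamts2 (chromosome 11, 50602084 to 50807573), which trims fibrillar procollagens, was at 0.167 and 0.123 RPKM in the ES pair, 1.69 and 2.44 in the 3F+IL6 pair, 1.94 and 1.55 in the 4F pair and 12.1 and 11.2 in the MEF pair, so that clones lay between ES cells and MEF. It was above ES cells by 1.41 and 1.26 (limma adjusted p = 0.00017 and 0.00025) and below MEF, with differences of −2.06 and −2.21. Adamts14, with the same activity, was highest in the clones, at 2.47 to 4.05 RPKM against 1.2 and 1.54 in ES cells and, in MEF, 1.5 and 1.5. It rose in 3F+IL6 and 4F relative to MEF (0.75 and 0.71) and to ES cells (0.82 and 0.79). For 4F the call against ES cells was lost without ES 1 (0.69) or 4F clone 2 (0.68), and that against MEF without 4F clone 2 (0.60); for 3F+IL6 the difference from MEF was 0.48 without 3F+IL6 clone 2. Adamts3, the third of this kind, was at most 0.164 RPKM.

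A pair of ADAMTS genes was lower in clones than in ES cells. Adamts10 (chromosome 17, 33524204 to 33553782), which acts on fibrillin microfibrils, was at 4.05 and 3.65 RPKM in the ES pair, 0.704 and 1.15 in the 3F+IL6 pair, 0.675 and 0.847 in the 4F pair and 6.2 and 6.52 in the MEF pair. Clones were the lowest group, below ES cells at −1.34 and −1.46 (limma adjusted p = 0.00016 and 0.00011) and below MEF at −1.94 and −2.07 (adjusted p = 7e-06 and 4.8e-06). Adamts8 was at 1.67 and 1.68 RPKM in ES cells, 0.19 to 0.367 in the clones and at most 0.0298 in MEF, and fell in the clones relative to ES cells (−1.12 and −1.06). It passed the filter through ES cells alone, so a fall relative to ES cells was built into its entry. Its 3F+IL6 difference from MEF (0.28) was called but turned to −0.02 with quantile normalization, and the call was lost without 3F+IL6 clone 1 (0.23), MEF 1 (0.26) or MEF 2 (0.31). The 4F call (0.34) was lost with quantile normalization (0.03) and without 4F clone 2 (0.25) or MEF 1 (0.32). Adamts15, a proteoglycan-cutting relative, did not pass the filter but was at 0.312 to 0.658 RPKM in the clones, 0.147 and 0.0994 in ES cells and at most 0.0186 in MEF.

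The other tested ADAMTS genes were at low levels in all groups. In ES cells against MEF, Adamts4 was lower at −0.72 and Adamts9 at −0.82 (limma adjusted p = 0.0011 and 0.00015). Adamts4, an aggrecanase, was at 0.614 and 0.824 RPKM in ES cells and 1.26 to 2.06 elsewhere. It was higher in 3F+IL6 than in ES cells (0.73, and 0.44 with quantile normalization), and its call in 4F against ES cells (0.49) was lost with quantile normalization (0.23) and without ES 1 (0.40) or 4F clone 1 (0.40). Adamts9, which cuts versican, was lower than MEF in 3F+IL6 (−0.43, and −0.71 with quantile normalization) and 4F (−0.59); its 3F+IL6 call against ES cells (0.39) was lost without ES 1 (0.32) and with quantile normalization (0.08). Adamts7 ran from 1.15 to 2.26 RPKM and was called in none of the 6 comparisons. The unadjusted p of Adamts7 was under 0.05 in ES cells against MEF (adjusted p = 0.052) and over it in the other 5.

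The 18 members that did not pass the filter were 9 MMP, 8 ADAMTS and 1 TIMP gene, with at most 0.685 RPKM (Mmp28) in any library. Mmp7, the epithelial matrilysin, was the member listed at 0 throughout. Mmp20, the enamel protease, and Mmp21 were listed at 0 in all but ES 1, or for Mmp21 ES 1 and 4F clone 2. Adamts13, the protease of von Willebrand factor, was at most 0.0182 RPKM. Adamts19 was at 0.204 to 0.34 RPKM in the 4 clones, at most 0.0535 in ES cells and at most 0.0231 in MEF. Mmp1a and Mmp1b reached 0.574 and 0.539 in 3F+IL6 clone 2.

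Counted over the tested members, ES cells against MEF gave 4 higher (Mmp11, Mmp15, Mmp17 and Adamts8), 20 lower and 4 not called. Over all 13200 genes limma called 81.7% in that comparison, 49.7% higher and 32% lower. In 3F+IL6 against MEF 8 members were higher, 13 lower and 7 not called (82.1% of all genes called, 49.4% higher and 32.6% lower), and in 4F against MEF 7 were higher, 17 lower and 4 not called (83.6% of all genes, 49.2% and 34.4%). The median log2 difference over the 28 members was −2.18, −0.34 and −0.75 in these comparisons, beside 0.27, 0.26 and 0.25 over all genes, and −2.15, −0.18 and −0.59 over the 23 members that did not enter through a single group. In 3F+IL6 against ES cells 21 members were higher, 3 lower and 4 not called (63.4% of all genes called, 33.1% higher and 30.3% lower), and in 4F 18, 3 and 7 (67.2% of all genes, 33.7% and 33.5%). The 3 lower genes were Mmp15, Adamts8 and Adamts10 for each kind of clone. The medians were 0.78 and 0.68 (1.08 and 0.84 over the 23), against 0.01 and 0.00 over all genes. These comparisons share their libraries and are not independent of each other, and the 5 genes that passed the filter through a single group are among the counts.

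**Figure D3:**
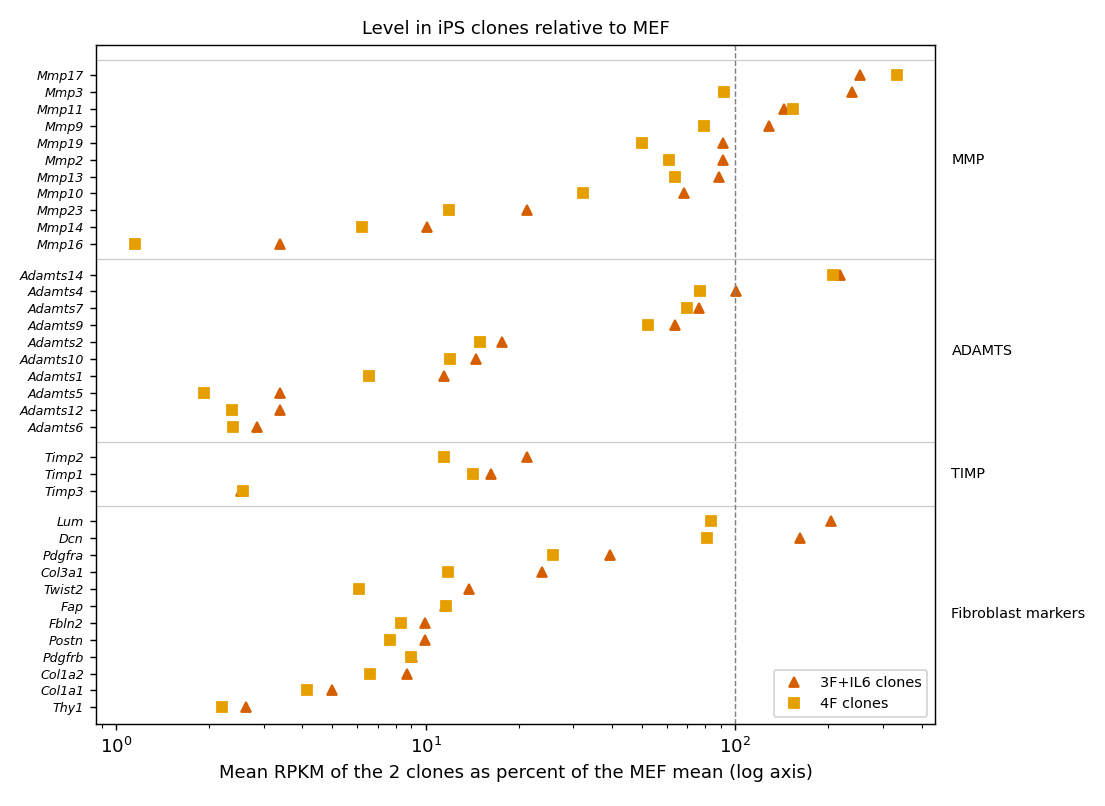
Mean RPKM of the clones as a percentage of the MEF mean (log axis; triangles 3F+IL6, squares 4F; dashed line at 100%) for the 24 members with a MEF mean of at least 1 RPKM and for the 12 fibroblast markers. The median was 91.0% and 61.3% for 11 MMP, 16.2% and 13.5% for 10 ADAMTS, 16.2% and 11.5% for 3 TIMP genes, and 10.8% and 8.66% for the fibroblast markers. Adamts5, 6 and 12 and Mmp16 passed the filter through MEF alone, and without them the medians were 91.1% and 62.7% for MMP and 63.7% and 52.5% for ADAMTS genes.

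As a percentage of the MEF mean, the 12 markers ran from 2.63% to 204% in 3F+IL6 (median 10.8%) and from 2.20% to 83.7% in 4F (median 8.66%). The 3 TIMP genes ran from 2.54% to 21.3% and from 2.58% to 14.3%, and the 10 ADAMTS genes from 2.86% to 218% and from 1.93% to 207%. The 11 MMP genes ran from 3.39% to 253% in 3F+IL6 (median 91.0%) and from 1.15% to 332% in 4F (median 61.3%), with Mmp17 at the top and Mmp16 at the bottom of both. The ranges of the markers, ADAMTS and MMP genes overlapped widely. Genes were taken for a MEF mean of at least 1 RPKM, and 3 of the 10 ADAMTS genes and 1 of the 11 MMP genes passed the filter through MEF alone. Without those the medians in 3F+IL6 and 4F were 63.7% and 52.5% for ADAMTS and 91.1% and 62.7% for MMP genes, and no median carries a test.

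Between the kinds of clone, which asks how 3F+IL6 clones differ from 4F clones, limma called 1 of the 28 members. Mmp3 was higher in 3F+IL6 by 1.29 (SE 0.21; limma adjusted p = 0.047). Over all genes 1.34% were called, 0.773% higher and 0.568% lower. The Mmp3 call held with quantile normalization and without 3F+IL6 clone 1 (1.66) or clone 2 (0.91), where 10 and 3 members were called (35.7% and 10.7% of them) beside 36.4% and 6.2% of all genes. It was lost, with the difference at 1.22 to 1.36, without any other single library (adjusted p = 0.12 without ES 1 or ES 2, 0.19 and 0.18 without 4F clone 1 or clone 2, 0.15 without MEF 1 or MEF 2), with no filter, with a pseudocount of 0.1, with a replicate block (adjusted p = 0.071), and when only the 4 clone libraries were fitted (adjusted p = 0.38).

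Timp2, Mmp10 and Adamts1 were not called: Timp2 had a difference of 0.83 (SE 0.19; limma adjusted p = 0.079), Mmp10 of 0.67 (adjusted p = 0.18) and Adamts1 of 0.47 with a smaller error (adjusted p = 0.051). Mmp17 had the lowest difference of the members, at −0.34 (SE 0.10; limma adjusted p = 0.12). Of the 28 members 24 had a positive difference, beside 56.2% of all genes. An unadjusted limma p under 0.05 was found for 11 of the 28 members and for 3198 of all 13200 genes. The fibroblast markers stood in the same direction, with 11 of 12 positive, a median of 0.32 and 0 called by limma (5 at an unadjusted p under 0.05). In 3F+IL6 clone 2, 23 of the 28 members had a higher value than in clone 1 (60.5% of all genes), with a median log2 excess of 0.21. The summed fibroblast markers were at 345 RPKM in that clone and 228 in clone 1, against 221 and 184 in the 4F clones. Their part in the Mmp3 difference was not tested.

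**Figure D4:**
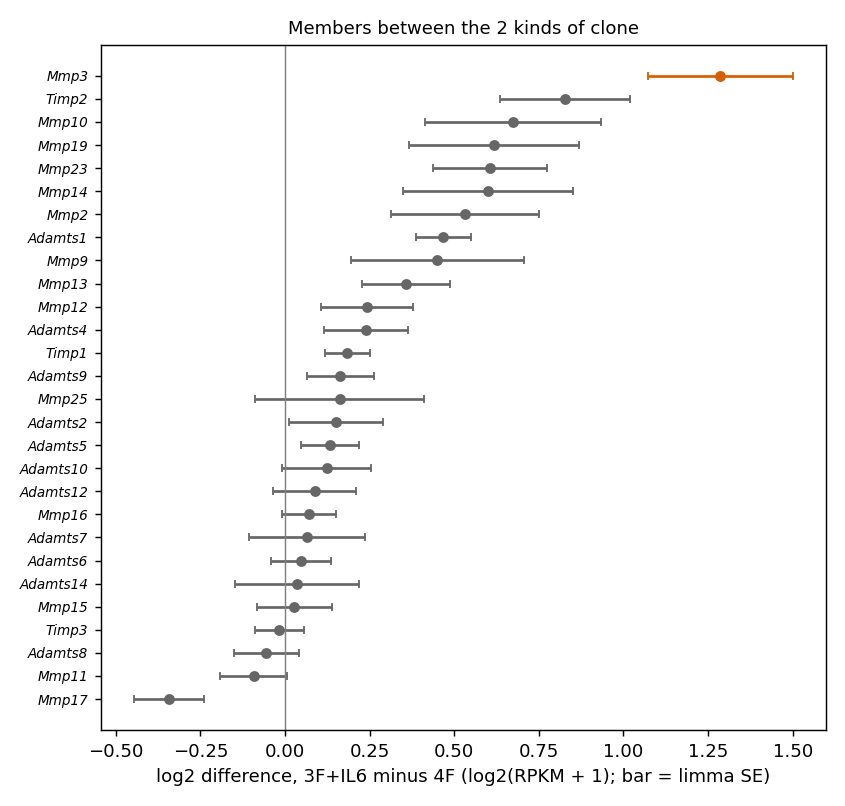
Log2 difference between 3F+IL6 and 4F clones for each of the 28 tested members (horizontal axis, on log2(RPKM + 1); bars are limma standard errors; 2 clones of each kind). The coloured point is Mmp3 at 1.29, the called member, and Mmp17 lies lowest at −0.34.

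Genes that activate or restrain these proteases were taken as a list of 18, of which 16 were tested. Against MEF limma called 12 lower and 3 higher in 3F+IL6 (32.6% and 49.4% of all genes). In 4F it called 12 and 4 (34.4% and 49.2%), and in ES cells 14 and 1 (32% and 49.7%). Those that fell included the urokinase receptor gene Plaur, at −4.07 in 3F+IL6 and −3.87 in 4F, and Furin, the convertase that activates Mmp14 and Mmp11, at −2.34 and −2.62. Against ES cells 9 were higher in each kind of clone (33.1% of all genes in 3F+IL6 and 33.7% in 4F). Lower were 3 in 3F+IL6 and 2 in 4F (30.3% and 33.5% of all genes). Serpine2, an inhibitor of thrombin and plasminogen activators, rose by 3.56 and 3.17, and Lrp1, the receptor that clears MMPs and TIMPs, by 2.22 and 2.56. Plaur fell relative to ES cells too (−2.24 and −2.04). Between the kinds of clone 0 were called by limma, beside 1.34% of all genes.

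Of 15 substrates 12 were tested. Of all genes 33.1% were higher and 30.3% lower in 3F+IL6 than in ES cells, and 33.7% and 33.5% in 4F. Of the substrates 9 rose and 2 fell against ES cells in each kind of clone. Col1a1, a chain of collagen I, was at 4.55 and 4.31 for 3F+IL6 and 4F. Against MEF 3 were higher and 6 lower in 3F+IL6 (49.4% and 32.6% of all genes), and 3 and 7 in 4F (49.2% and 34.4%). The versican gene Vcan, a substrate of Adamts1, 5 and 9, fell relative to MEF (−2.88 and −3.26). Among 7 ADAMTS-like and papilin genes, which lack protease activity, 3 were tested. Each was lower than MEF in clones and ES cells, with Adamtsl5 at −2.88, −3.03 and −2.82 in 3F+IL6, 4F and ES cells. Of all genes 32.6%, 34.4% and 32% were lower than MEF in these comparisons.

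Transcription factors and signals that are known to induce MMP genes formed a list of 14, of which 12 were tested. Against MEF 10 were lower and 1 higher in each kind of clone (32.6% and 49.4% of all genes in 3F+IL6, 34.4% and 49.2% in 4F). Among the lower were the AP-1 genes Fosl1 (−3.52 and −4.19), Fosl2 (−3.74 and −4.27) and Jun (−2.16 and −2.56). Against ES cells 5 were higher and 1 lower in 3F+IL6 (33.1% and 30.3% of all genes), and 5 and 4 in 4F (33.7% and 33.5%). In 4F the lower calls of Jund (−0.22) and Tgfb1 (−0.59) were lost with no filter and the replicate block, among others. That of Junb was lost without ES 1 (−0.19) or 4F clone 1 (−0.24). The higher call of Fos was lost with quantile normalization (0.77), among others. That of Il6 was lost without ES 1 (1.15), ES 2 (1.07) or 4F clone 2 (0.67). In 3F+IL6 the call of Ets1 was lost with quantile normalization (0.15), and that of Ets2 without ES 1 (−0.33). Jun was at 1.73 and 1.49 RPKM in the ES pair, 11.4 and 12.4 in the 3F+IL6 pair, 9.34 and 8.26 in the 4F pair and 55.9 and 57.2 in the MEF pair, which put the clones between ES cells and MEF. Between the kinds of clone Fosl1 was higher in 3F+IL6 (0.67; limma adjusted p = 0.033), at 3.83 and 3.36 RPKM against 1.77 and 1.99 in 4F. That call was lost on leaving out an ES (0.67), a 4F (0.62 and 0.73) or a MEF (0.67) library, with the replicate block, and when only the 4 clone libraries were fitted.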

How the data were processed

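Poly-A RNA-seq libraries were prepared with an Illumina TruSeq kit, per the labels' protocols, and the submitters' processing notes name the build mm10. Aligner, counter, gene models and strand use: not given in the sources used here. The authors deposited 1 table per library with a value per symbol that is read here as RPKM, scaled by the authors to gene length and depth, since low values step with gene length (no header names the unit). A row that names no gene was left out. Low values of genes with a single GENCODE M21 transcript clustered at multiples of a step, which gave the estimated depths, but only 54.1% to 60% were whole within 0.1 read, so no count test was run. Depth limits values near 0, and intervals were not computed.

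limma 3.58.1 in R 4.3.3 fitted log2(RPKM + 1) with trended empirical Bayes variance, without a replicate block. Alternatives were a pseudocount of 0.1, no filter, quantile normalization, a replicate block, a fit to the 4 libraries of a comparison alone, and leaving out each library. The fit was tested on simulated data in which each gene had the same spread in all 4 groups. The groups here differed in spread, so that test does not cover the calls between the kinds of clone. The members and lists were chosen with earlier results of these data known. Any member could be named. Of the other lists up to 4 called genes with the smallest p were eligible, besides genes named for a lost or reversed call. The cell type markers named were picked after their values were seen. Coordinates are mm10, and all 46 symbols matched GENCODE M21. RefSeq promoters (GRCm38.p6) matched 32 of the 46. Some listed or overlapping genes are not reported here.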

Additional observations from a re-analysis of the deposited data

How the results depend on the processing

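limma called 1 member between 3F+IL6 and 4F. In that fit 11 members and 3198 of all 13200 genes had an unadjusted p under 0.05. With no filter, a pseudocount of 0.1, the replicate number as a block or the 4 clone libraries alone, 9, 9, 10 and 4 members did. The count of called members was 0 in those 4 settings and 2 with quantile normalization. Leaving out a library gave 0 to 10. The high counts, 10 and 3, came without 3F+IL6 clone 1 or clone 2, where the lone clone is assumed to vary like the other groups and 4802 and 819 of all 13200 genes were called, against 177 in the fit of all libraries. In the other 5 comparisons the counts stayed within 1.5 times of those reported: without single libraries they ran over 19 to 26 (3F+IL6 against ES), 17 to 24 (4F against ES), 20 to 25 (3F+IL6 against MEF), 20 to 25 (4F against MEF) and 22 to 26 (ES against MEF). Of 115 calls of a member in a comparison, 97 held in all 13 alternatives and 18 were lost in at least 1. Of 179 such calls in the activation, ADAMTS-like, substrate and inducer lists, 159 held in all 13 and 20 did not. Quantile normalization reversed Adamts8 (−0.024) and Acan (−0.15) in 3F+IL6 against MEF. It moved the median of all genes from 0.26 to 0.06 in that comparison, from 0.25 to 0.09 for 4F and from 0.27 to 0.15 for ES cells against MEF. The cause was not tested. Libraries share only a number: replicate deviations correlated at −0.06 to 0.21 between groups, so the replicates were not treated as paired. The replicate block gave 0 calls between the kinds of clone and 21 to 24 in the other comparisons.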
